A study of Mus musculus with 6 samples.

Results

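Membrane trafficking in neurons is run by small GTPases of the Rab, Arf and Arl families, by the coats and adaptors they recruit, and by the sorting complexes that read the same membranes. The genes were chosen by symbol alone: Rab, Arf, Arl, Vps, Snx or Sec followed by a digit, Arfg, the lettered Cop subunits, Tmed, and the lettered subunits of Ap1 to Ap4. No measured value entered the pattern, though it was chosen with earlier results of these data known. The pattern found 138 genes of the 5538 in the table, of which 137 code for protein and 1, Rab10os, is an antisense RNA. By textbook role, 130 were placed in 14 compartment lists, from the endoplasmic reticulum (ER) to the lysosome, the cell surface and the cilium. Another 3 matched the patterns but act elsewhere (Vps72 in chromatin, Arl6ip4 in splicing, Sec14l1 in lipid binding), and 5 were placed in no list (Arl6ip1, Arl6ip5, Arl16, Vps9d1 and Rab10os).

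A small GTPase binds membrane and recruits effectors while it holds GTP, and leaves when the GTP is hydrolysed, so each Rab or Arf marks the membrane on which it is active. Coats bend that membrane and select cargo: COPII leaves the ER, COPI returns from the Golgi, and the clathrin adaptors work at the Golgi, endosomes and cell surface. Neurons use the same machinery to recycle synaptic vesicles and receptors and to move endosomes and lysosomes along axons and dendrites.

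RNA was sequenced from the perioculomotor region of the midbrain of C57BL/6 mice, the tissue around the nucleus that moves the eyes, in 3 IP and 3 Input libraries. All libraries came from mice in which the Fos promoter, which responds to neuronal activity, drives the drug-inducible recombinase CreER, crossed with mice whose Cre-inducible reporter makes the ribosomal protein L10a fused to eGFP. Each mouse had 6 hr of sleep deprivation followed by 3 hr of recovery sleep, with 4-OHT, the drug that activates CreER, given just before either phase. IP is RNA recovered with eGFP antibodies, and Input is read as tissue RNA before that step. The labels do not say which libraries came from which injection, though the design text names the neurons labelled in recovery sleep. They give no age or sex. Each repeat pooled 4 to 5 mice, so the tests below measure the spread between pools. The reporter marks any cell in which Fos was active while the drug was present, and so is not limited to a cell type. Differences in bulk RNA cannot tell fewer cells of a type from less RNA per cell.

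The values are TPM, a transcript abundance scaled to one fixed total for each library, in which read depth is not kept and is unknown. Their scale differed between libraries of the same group, with the median gene between 27.7 TPM (IP 1) and 56.5 TPM (IP 2) in IP and between 31.1 TPM (Input 3) and 67.2 TPM (Input 2) in Input. Levels were therefore also expressed on the log2(TPM + 1) scale relative to the median gene of each library, called the relative level below, and the difference between the mean relative levels of IP and Input is called the relative difference. Over the 138 genes, the relative levels of IP 2 and IP 3 correlated at r = 0.969 and those of Inputs 1 and 2 at r = 0.970. IP 1 stood apart from IP 2 and IP 3 (r = 0.847 and 0.866), and Input 3 from Inputs 1 and 2 (r = 0.853 and 0.866). A second reading therefore set IP 2 and IP 3 against Inputs 1 and 2, a choice made after seeing the data. Marker lists described the fraction. All 6 cholinergic neuron markers had a positive relative difference, with a median of 1.24. Their summed levels overlapped, at 562 to 1075 TPM in IP and 417 to 629 TPM in Input. In relative level, 3 of the 6 had all IP libraries above all Inputs (6.93% of all genes). The 10 general neuron markers had relative differences from -0.80 to 1.22, with 6 positive and a median of 0.10 (4 positive and -0.05 without IP 1 and Input 3). Summed, they stood at 4399 to 9047 TPM in IP and 5170 to 8696 TPM in Input. The 2 measured of 9 endothelial and mural markers had relative differences of -0.15 and 1.92, with summed levels of 334 to 979 TPM in IP and 446 to 760 TPM in Input. The 2 measured of 10 microglial markers had a median of -0.38, with summed levels of 21.4 to 38.6 TPM in IP and 33.2 to 85.5 TPM in Input. The 6 measured of 11 astrocyte markers had a median of -0.32, with summed levels of 864 to 2209 TPM in IP and 827 to 4043 TPM in Input. The 6 measured of 10 oligodendrocyte markers had a median of -0.34, with summed levels of 365 to 4437 TPM in IP and 536 to 4877 TPM in Input. Their part in the trafficking values was not tested.

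Trafficking genes lay on the low side of the IP, without any single gene passing the test. Their median relative difference was -0.18, against 0.02 over all genes, and 50 of the 138 were above the median gene, or 36.2%, against 51.8% of all 5538 genes. In the limma fit over all genes, 0 trafficking genes were called higher and 0 lower at an adjusted p under 0.05 (background 0% in each direction), and the smallest adjusted p among them was 0.649. At an unadjusted p under 0.05, 0 were higher (background 3.58%) and 11 were lower (background 3.85%): Rab5b, Ap3s1, Vps26a, Arl6, Arf4, Rab10, Snx6, Snx5, Arl8b, Rab33b and Snx2. The 11 (7.97%) became 2 without Input 1 (1.45%, all genes 1.72%) and 4 without IP 2 (2.90%, all genes 2.004%). They became 6 without IP 1 (4.35%, all genes 3.21%) or without Input 2 (4.35%, all genes 2.18%). The count was 9 without IP 3 (6.52%, all genes 3.41%) or without Input 3 (6.52%, all genes 6.25%). The share was thus below that of all genes without Input 1 and near it without Input 3. In relative level, 4 genes had all IP libraries above all Inputs (background 6.93%) and 20 had all IP libraries below all Inputs (background 9.71%). The 4 were Ap1m1, Copg1, Arf5 and Sec24b.

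The second reading uses a subset of the same libraries. The sign of the relative difference was the same in both readings for 104 of the 138 genes (75.4%) and for 75.5% of all genes. With IP 2 and IP 3 against Inputs 1 and 2, 48 of the 138 genes, or 34.8%, had a positive relative difference, against 46.2% of all genes. The median was -0.13, against -0.04 over all genes. By molecule, the 29 coat and adaptor subunits were split evenly over all 6 libraries, with 15 above the median gene and a median of 0.08. The 29 Rab GTPases had 8 above and a median of -0.21, the 12 Arf and Arl GTPases had 4 above and a median of -0.25, and the 17 sorting nexins had 4 above and a median of -0.26. The 20 retromer, tether and ESCRT subunits had 6 above and a median of -0.11, but 11 above and a median of 0.07 in the second reading. The other 31 genes had 13 above and a median of -0.13. The plot of relative differences by compartment shows each gene.

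**Figure D1:**
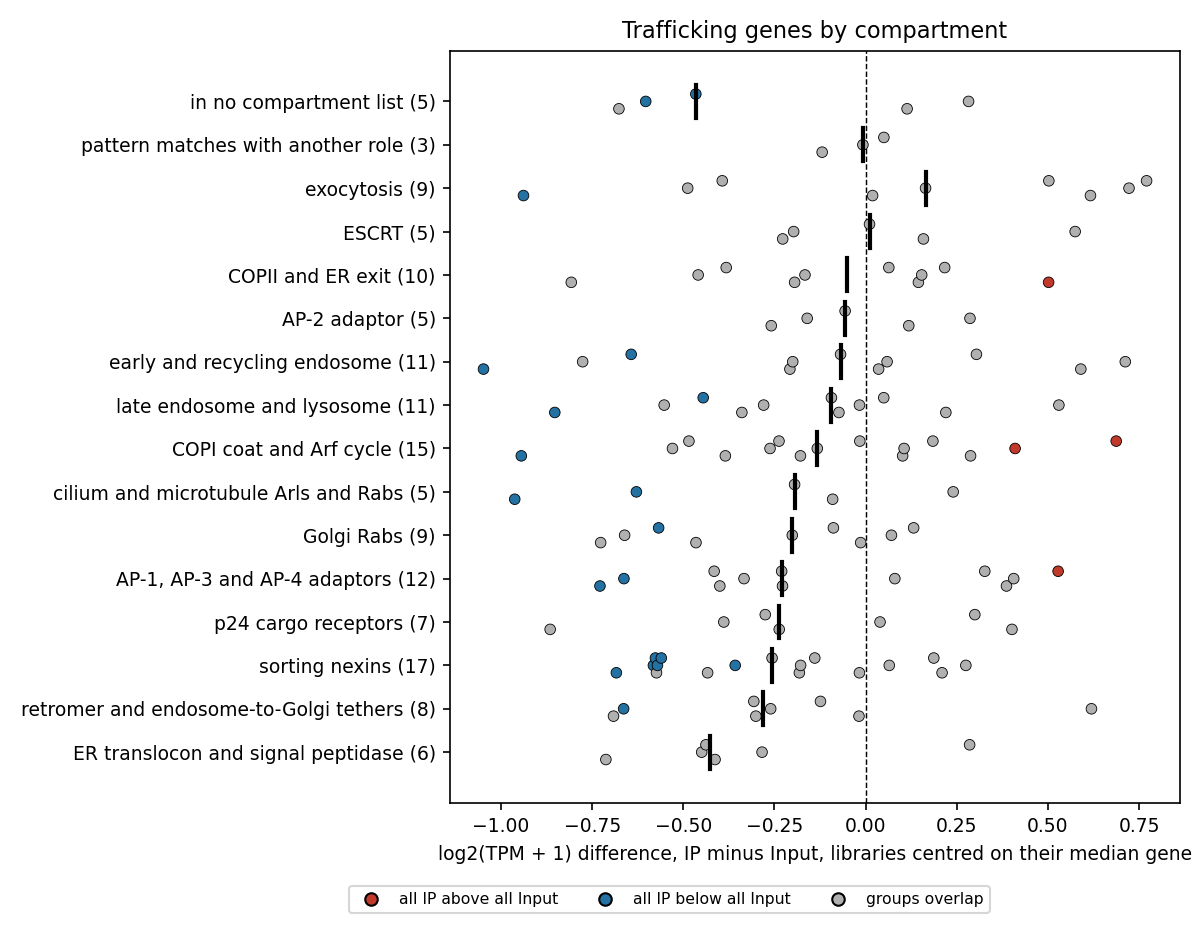
Relative log2 difference, IP minus Input, of each trafficking gene by compartment, with points for genes and marks for the list medians. The sorting nexins (median -0.26) and the ER translocon and signal peptidase (median -0.43) lie to the low side, and exocytosis (median 0.16) to the high side.

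At the ER, proteins enter the secretory pathway through the Sec61 channel and lose their signal peptide to the signal peptidase. Of the 6 genes measured for these steps, 5 lay below the median gene in relative difference, with a median of -0.43 over all 6 libraries and -0.47 in the second reading. The list's median relative level was -0.39, -0.65 and -0.57 in IP 1, IP 2 and IP 3 and -0.08, -0.18 and -0.06 in Inputs 1, 2 and 3, so the groups did not overlap. Sec62, which helps completed proteins enter the channel, stood at 22.6, 22.4 and 24.7 TPM in IP and 62.5, 44.2 and 35.2 TPM in Input. Every IP value of Sec62 was lower than every Input value in TPM, while the relative levels overlapped through IP 1 (relative difference -0.71, SE 0.35). Sec11c, a catalytic subunit of signal peptidase, was measured at 120, 108 and 139 TPM in IP and 223, 249 and 136 TPM in Input. Input 3 was within the IP range for this gene. Sec61a1, the channel itself, was low in all libraries, at 9.69 to 31.7 TPM in IP and 23.97 to 30.7 TPM in Input. Sec61b, a small subunit of the channel, was the 1 gene on the high side (0.29, SE 0.55). Its IP values of 130, 49.6 and 97.3 TPM enclosed those of Input, at 108, 99.6 and 54.0 TPM, and in the second reading its relative difference was -0.28.

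COPII carries cargo out of the ER, and its 10 genes were evenly divided, with 5 above the median gene and a median of -0.05. Sec24b, a cargo-binding subunit of the inner coat, was at 13.9, 34.4 and 20.4 TPM in IP and 24.3, 24.1 and 9.37 TPM in Input. Once each library was set to its median gene, all IP values lay above all Input values (relative difference 0.50, SE 0.25). Rab1a, which tethers ER-derived vesicles to the Golgi, went the other way, at 34.6, 171 and 176 TPM in IP and 295, 222 and 146 TPM in Input (relative difference -0.81, SE 0.42). IP 1 was far below the other libraries for Rab1a, and without IP 1 and Input 3 the relative difference was -0.27. Its paralog Rab1b, with the same role, stood at 119 to 206 TPM in IP and 166 to 277 TPM in Input (-0.19, SE 0.26).

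The p24 proteins, encoded by Tmed genes, cycle between ER and Golgi with COPII and COPI and help select cargo. Of the 7 measured, 3 lay above the median gene over all libraries and 0 in the second reading. Tmed9 stood at 62.6, 48.3 and 25.2 TPM in IP and 118, 107 and 63.5 TPM in Input. Its TPM were lower in every IP library than in every Input library, but the relative level of IP 1 was the highest of all 6. Tmed9 was not called over all libraries (-0.87, SE 0.51), and it was the 1 trafficking gene called lower by limma in the second reading (-1.37, SE 0.26, adjusted p = 0.0219, background 2.89%). Tmed10, which pairs with Tmed2, stood at 14.9 to 41.6 TPM in IP and 21.6 to 62.4 TPM in Input (-0.39, SE 0.24). Tmed2 itself was at 25.5 to 105 TPM in IP and 42.9 to 150 TPM in Input (-0.28, SE 0.37). Tmed5 had 1 library that stood alone, IP 1 at 53.7 TPM, against 9.82 to 18.01 TPM in the other 5.

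COPI forms at the Golgi when Arf GTPases recruit the coatomer. Of its 15 genes, 6 lay above the median gene, with a median of -0.13. The class II Arfs, Arf4 and Arf5, lay at opposite ends of the list. Arf4 (chr14:26638074-26665084, plus strand) stood at 36.2, 123 and 141 TPM in IP and 279, 214 and 128 TPM in Input. Arf5 (chr6:28423560-28426602, plus strand) stood at 337, 303 and 284 TPM in IP and 282, 350 and 116 TPM in Input. In relative level, every IP value of Arf4 was below every Input value (-0.94, SE 0.34), and every IP value of Arf5 was above every Input value (0.69, SE 0.38). The coding sequences of this pair are 78.7% identical, and the most alike stretch, where reads are hardest to assign to one gene, is shown: 75 bases of coding sequence starting at coding base 154 of both genes, on the plus strand of GRCm38 with GENCODE M21 models. Capitals mark the 8 bases that differ.
Arf4: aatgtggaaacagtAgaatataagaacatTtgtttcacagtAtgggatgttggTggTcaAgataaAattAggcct
Arf5: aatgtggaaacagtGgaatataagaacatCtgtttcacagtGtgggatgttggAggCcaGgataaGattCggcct
No run of identical bases in the aligned coding sequences was longer than 14 bases.

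Within each library, Arf4 was 0.107, 0.405 and 0.498 times Arf5 in IP and 0.989, 0.612 and 1.10 times Arf5 in Input. This ratio does not depend on how a library is scaled. All 3 IP ratios were below all 3 Input ratios, a mean difference of -1.65 on the log2 scale, or -0.79 without IP 1 and Input 3. With 3 libraries a group, the smallest two-sided p that an exact permutation test could give is 0.1. The exons of Arf4 are overlapped on the opposite strand by other genes, among them Arf4os, and those of Arf5 by Gcc1. The labels do not state whether strand was kept.

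The class I Arfs, which recruit coatomer and Golgi adaptors, were led by Arf1, with a mean of 409 TPM over the 6 libraries. Arf3 had a mean of 256 TPM, against 279 TPM for Arf5 and 154 TPM for Arf4. Arf1 was at 179, 436 and 434 TPM in IP and 555, 543 and 309 TPM in Input, with overlapping relative levels (-0.24, SE 0.27). Arf3 stood at 104 to 281 TPM in IP and 155 to 399 TPM in Input (-0.38, SE 0.26). Of the coatomer itself, Copg1, the gamma subunit, was at 192, 403 and 370 TPM in IP and 402, 370 and 137 TPM in Input. All IP values of Copg1 were above all Input values in relative level (0.41, SE 0.27). Its paralog Copg2, less abundant, stood at 16.1 to 28.3 TPM in IP and 13.0 to 97.4 TPM in Input (-0.53, SE 0.46). Cope, the epsilon subunit, had the highest mean TPM of the list and overlapping groups, at 400 to 606 TPM in IP and 221 to 810 TPM in Input (0.29, SE 0.33). Copa, the alpha subunit, was at 31.5 to 124 TPM in IP and 42.9 to 121 TPM in Input (0.18, SE 0.33).

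Of the 9 Rabs placed at or near the Golgi, 7 lay below the median gene, with a median of -0.20. Rab33b, which acts at the Golgi and in autophagosome formation, had the lowest mean TPM of the 9, at 9.51, 17.7 and 15.8 TPM in IP and 27.7, 30.9 and 18.6 TPM in Input. The groups did not overlap, in TPM or in relative level (-0.57, SE 0.24). Rab18, which acts at the ER and on lipid droplets, was at 35.6, 120 and 156 TPM in IP and 198, 155 and 169 TPM in Input. IP 1 was far the lowest, and the relative difference of -0.73 (SE 0.43) was -0.06 without IP 1 and Input 3. Rab2a, which acts between ER and Golgi, stood at 85.5 to 309 TPM in IP and 113 to 422 TPM in Input (-0.20, SE 0.38).

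Rab6 is the main Rab of the Golgi stack, with a widely expressed form, Rab6a, and a form enriched in neurons, Rab6b. Rab6a was at 49.95, 187 and 193 TPM in IP and 288, 301 and 92.6 TPM in Input. Rab6b stood at 75.5, 217 and 171 TPM in IP and 235, 231 and 65.4 TPM in Input. Neither had separate groups in relative level, but their ratio did. Rab6a was 0.661, 0.862 and 1.13 times Rab6b in the IP libraries and 1.23, 1.30 and 1.42 times Rab6b in the Inputs, a log2 difference of -0.60, or -0.36 without IP 1 and Input 3. Their closest 75 coding bases, from coding base 97 of both, are shown to compare the forms, from chr7:100607410-100641268 (Rab6a, plus strand) and chr9:103111787-103185276 (Rab6b, plus strand), with the 8 differing bases in capitals.
Rab6a: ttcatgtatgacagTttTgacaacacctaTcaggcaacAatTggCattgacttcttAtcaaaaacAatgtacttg
Rab6b: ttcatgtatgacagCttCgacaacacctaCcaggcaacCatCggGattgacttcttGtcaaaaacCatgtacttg
The exons of Rab6a overlap the opposite-strand gene Mrpl48, which is also in the table.

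AP-2 is the adaptor of clathrin coats at the cell surface, and all 5 of its list entries were measured, with a median of -0.06 and no gene with separate groups. Ap2m1, the subunit that binds tyrosine-based sorting signals, was the most abundant, at 478, 672 and 698 TPM in IP and 1002, 969 and 660 TPM in Input (-0.26, SE 0.32). Input 3 was within the IP range. Ap2a1, an alpha subunit, was at 55.2 to 159 TPM in IP and 54.3 to 149 TPM in Input (0.29, SE 0.26).

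The AP-1, AP-3 and AP-4 adaptors work at the Golgi and endosomes. Of their 12 genes, 5 lay above the median gene, with a median of -0.23, or -0.08 in the second reading. Ap3s1, the sigma subunit of AP-3, which sorts cargo to lysosomes and related organelles, stood at 13.1, 31.3 and 35.8 TPM in IP and 72.8, 62.0 and 26.3 TPM in Input. Although Input 3 lay inside the IP range in TPM, all IP values were below all Input values in relative level (-0.73, SE 0.25). Ap1m1, the medium subunit of AP-1, had the reverse order, at 61.8, 136 and 128 TPM in IP and 126, 138 and 33.9 TPM in Input (0.53, SE 0.31). Its Input 3 value was the lowest of the 6, and without IP 1 and Input 3 the relative difference was 0.29. Ap1s1, a small subunit of AP-1, was the most abundant of the list and lower in all IP libraries than in all Inputs in TPM, at 167 to 220 against 234 to 308 TPM, with overlap in relative level (-0.23, SE 0.37).

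On early and recycling endosomes, Rab5 governs fusion, Rab4 the fast and Rab11 the slow return to the surface. Of 11 genes, 5 lay above the median gene, with a median of -0.07. The list's median relative level was -0.40, 0.37 and 0.43 in IP 1, IP 2 and IP 3 and 0.80, 0.81 and 0.59 in Inputs 1, 2 and 3, without overlap. That median was the value of Rab4a in every library but Input 2. In relative level, 2 of the 11 genes, Rab4a (-0.64, SE 0.30) and Rab5b, had all IP values below all Inputs (18.2%, all genes 9.71%). The reverse order was found in 0. Rab5b had the lowest relative difference of all 138 genes. It stood at 8.92, 36.5 and 34.5 TPM in IP and 76.5, 60.5 and 39.9 TPM in Input. Every IP value was below every Input value in TPM and in relative level (-1.05, SE 0.33, limma unadjusted p = 0.0142, adjusted p = 0.649), and without IP 1 and Input 3 the relative difference was -0.63. Rab5a, with a similar role, varied within both groups, at 12.6, 89.7 and 112 TPM in IP and 134, 118 and 20.8 TPM in Input (-0.20, SE 0.65). Of the recycling Rabs, Rab11b was the most abundant, at 273 to 480 TPM in IP and 389 to 589 TPM in Input (-0.07, SE 0.31). Rab11a stood at 202 to 254 TPM in IP and 167 to 335 TPM in Input (0.06, SE 0.29). Neither form differed beyond the spread of its groups.

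Rab11fip4, an effector that binds active Rab11, was among the 3 genes called higher in the second reading. It stood at 66.0, 66.3 and 56.5 TPM in IP and 29.5, 35.7 and 86.9 TPM in Input. Inputs 1 and 2 were the lowest libraries and Input 3 the highest, so the groups overlapped. The relative difference was 0.71 (SE 0.69) over all libraries and 1.18 (SE 0.20, limma adjusted p = 0.0113) without IP 1 and Input 3.

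For exocytosis, 6 of 9 genes lay above the median gene, with a median of 0.16. That was the highest of the 14 lists over all 6 libraries, but the median was -0.08 in the second reading, with 4 of 9 above. Rab3a, the main Rab of synaptic vesicles, was the most abundant trafficking gene. It stood at 914, 1180 and 1243 TPM in IP and 1606, 1511 and 885 TPM in Input, and made up 7.63% to 10.99% of the TPM of the 138 genes in a library. Relative to the median gene the groups overlapped, with a difference of 0.02 (SE 0.33). Rab3gap1, the catalytic subunit of the complex that switches Rab3 off, stood at 128, 130 and 161 TPM in IP and 69.3, 70.0 and 183 TPM in Input. As with Rab11fip4, Inputs 1 and 2 were the lowest and Input 3 the highest. Its relative difference was 0.77 (SE 0.67) over all libraries and 1.33 (SE 0.21, limma adjusted p = 0.00907) in the second reading. Rab37, a Rab of secretory granules, was less abundant, at 16.2, 34.8 and 24.5 TPM in IP and 14.4, 16.02 and 21.3 TPM in Input (0.72, SE 0.43). In the second reading its difference was 1.19 (SE 0.24, limma adjusted p = 0.0281). These 3 of 138 genes were called higher there (background 3.38%), and in all 3 the left-out Input 3 had the highest relative level of the Inputs and of all 6 libraries.

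Rab10, which delivers vesicles to the cell surface and acts in axon growth, went the other way. It stood at 16.4, 55.3 and 53.9 TPM in IP and 87.2, 90.8 and 76.9 TPM in Input, with every IP value below every Input value in TPM and in relative level (-0.94, SE 0.35). The antisense Rab10os, which overlaps its exons, also had all IP values below all Inputs in relative level (-0.47, SE 0.23). Without a statement on strand, reads from the exonic bases that this pair shares cannot be told apart.

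**Figure D2:**
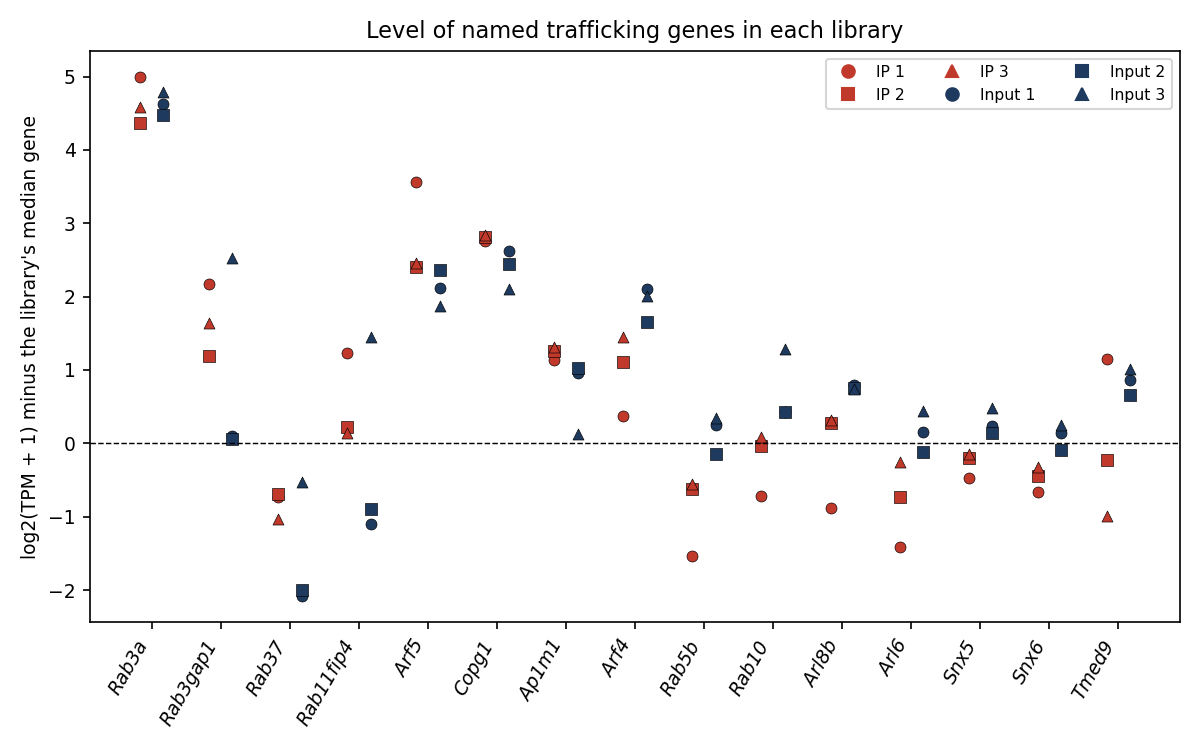
Relative level, log2(TPM + 1) minus the library's median gene, of 15 named trafficking genes in each IP and Input library. Arf4, Rab5b, Rab10, Arl8b, Arl6, Snx5 and Snx6 have all IP points below all Input points, Arf5, Copg1 and Ap1m1 all above, and in Rab3gap1, Rab11fip4 and Rab37 Input 3 lies at the top.

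On the way to the lysosome, Rab7 marks late endosomes, the Vps subunits of the HOPS and CORVET complexes tether them, and Arl8 links lysosomes to kinesin motors. Of 11 genes, 3 lay above the median gene (median -0.09), and 6 did in the second reading (median 0.06). Rab7 stood at 146, 281 and 306 TPM in IP and 448, 441 and 269 TPM in Input. In relative level every IP value was below every Input value, by a small margin (-0.45, SE 0.26). Vps18, a core subunit of both tethers, was at 11.3, 45.7 and 36.0 TPM in IP and 34.3, 36.6 and 7.83 TPM in Input (0.53, SE 0.38), with IP 1 and Input 3 the lowest libraries.

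The Arl8 forms differed from each other. Arl8b stood at 14.6, 69.0 and 64.1 TPM in IP and 113, 114 and 52.6 TPM in Input, with all IP values below all Inputs in relative level (-0.85, SE 0.36). Arl8a was at 76.6, 139 and 128 TPM in IP and 207, 210 and 32.8 TPM in Input (0.22, SE 0.45). Arl8a was 5.24, 2.02 and 1.99 times Arl8b in IP and 1.84, 1.84 and 0.623 times in Input. The groups did not overlap, with a log2 difference of 1.11, but IP 1 and Input 3 gave most of it, and without them it was 0.12. The closest 75 coding bases, from coding base 46 of both genes, are shown because the pair is 79.2% identical over its coding sequence (Arl8a at chr1:135146824-135156269 and Arl8b at chr6:108783099-108825278, both plus strand, 7 differing bases in capitals).
Arl8a: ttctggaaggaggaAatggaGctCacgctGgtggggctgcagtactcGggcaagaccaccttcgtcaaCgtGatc
Arl8b: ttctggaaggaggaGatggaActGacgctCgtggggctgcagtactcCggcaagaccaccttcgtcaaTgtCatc

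The ESCRT machinery sorts ubiquitinated cargo into the vesicles of multivesicular endosomes. Its 5 genes under a Vps symbol had a median of 0.01, with 3 above the median gene. Vps36, a subunit of ESCRT-II, was at 15.4, 19.8 and 14.7 TPM in IP and 13.3, 15.0 and 10.7 TPM in Input (0.57, SE 0.34). Vps4a, the ATPase that disassembles ESCRT-III, stood at 40.6 to 115 TPM in IP and 60.9 to 152 TPM in Input (-0.23, SE 0.26). In both genes the groups overlapped.

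Retromer returns receptors from endosomes to the Golgi and the cell surface, and the GARP complex tethers the vesicles that arrive. Of the 8 genes of these steps, 7 lay below the median gene, with a median of -0.28, or -0.16 in the second reading. Vps26a, a subunit of the cargo-recognition trimer, was at 7.51, 19.1 and 20.2 TPM in IP and 33.7, 39.8 and 16.03 TPM in Input. After centring, all IP values were below all Inputs (-0.66, SE 0.23, limma unadjusted p = 0.0232). Vps35, the scaffold of the trimer, stood at 12.7, 69.5 and 81.5 TPM in IP and 112, 92.5 and 51.8 TPM in Input, with IP 1 the lowest (-0.69, SE 0.45, and -0.15 without IP 1 and Input 3). Vps29, the remaining subunit, was the most abundant, at 117 to 249 TPM in IP and 168 to 322 TPM in Input (-0.30, SE 0.27). Vps51 of GARP was the 1 gene above the median gene, at 48.8, 120 and 107 TPM in IP and 107, 136 and 19.4 TPM in Input (0.62, SE 0.44). Input 3 was the lowest library for Vps51, and without IP 1 and Input 3 its relative difference was 0.20.

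Sorting nexins bind phosphoinositides on endosomes, and several shape the tubules along which retromer cargo leaves. Of 17 measured, 13 lay below the median gene, with a median of -0.26, or -0.30 in the second reading. Their median relative level was -0.33, -0.20 and -0.15 in IP 1, IP 2 and IP 3 and 0.13, 0.14 and 0.25 in Inputs 1, 2 and 3, without overlap. In 6 of the 17, or 35.3%, all IP values lay below all Inputs in relative level (Snx2, Snx10, Snx6, Snx15, Snx5 and Snx3). The background for that order, given above, was 9.71% of all genes, and 0 nexins had the reverse order.

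Of the nexins that work with retromer, Snx5 (chr2:144250123-144270906) was at 19.6, 49.0 and 46.0 TPM in IP and 76.0, 74.2 and 43.7 TPM in Input. Snx6 (chr12:54746349-54795703) was at 17.0, 41.2 and 40.5 TPM in IP and 70.7, 63.0 and 37.1 TPM in Input. Both had all IP values below all Inputs in relative level, Snx5 by -0.56 (SE 0.23) and Snx6 by -0.58 (SE 0.23). They kept nearly the same proportion throughout, with Snx5 at 1.15, 1.19 and 1.13 times Snx6 in IP and 1.07, 1.18 and 1.18 times in Input. To show how alike the genes themselves are, their closest 75 coding bases are given (coding bases 317 to 391 of Snx5 and 320 to 394 of Snx6, both on the minus strand, 11 differing bases in capitals). The coding sequences are 65.4% identical.
Snx5: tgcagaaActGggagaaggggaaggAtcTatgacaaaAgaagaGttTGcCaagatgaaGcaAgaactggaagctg
Snx6: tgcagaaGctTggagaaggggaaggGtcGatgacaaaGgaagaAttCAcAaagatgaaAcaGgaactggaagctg

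Their partners Snx1 and Snx2 had related values. Snx2 stood at 21.8, 64.4 and 68.6 TPM in IP and 98.3, 104 and 67.4 TPM in Input, with all IP values below all Inputs after centring (-0.68, SE 0.29). Snx1 was at 23.3, 76.3 and 73.2 TPM in IP and 117, 133 and 35.1 TPM in Input (-0.43, SE 0.33). Snx1 overlapped between groups through Input 3. Snx3, which forms a separate coat with retromer, was the most abundant nexin, at 138, 284 and 297 TPM in IP and 383, 415 and 258 TPM in Input (-0.36, SE 0.27). Snx27, which links retromer to receptors that recycle to the cell surface, had the highest relative difference of the family (0.27, SE 0.24). It stood at 34.5, 97.6 and 73.5 TPM in IP and 68.4, 89.7 and 38.01 TPM in Input, and its groups overlapped.

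Among the Arls and Rabs of cilia and microtubules, 4 of 5 lay below the median gene, with a median of -0.19. Arl6, which recruits the BBSome to the base of the cilium, was at 9.73, 33.5 and 42.4 TPM in IP and 71.6, 61.9 and 42.5 TPM in Input. Every IP value was below every Input value in TPM and in relative level (-0.96, SE 0.34). IP 3 and Input 3 were nearly level in TPM, and without IP 1 and Input 3 the relative difference was -0.52. Arl2, which acts in tubulin folding, was the most abundant, at 230, 232 and 270 TPM in IP and 333, 374 and 116 TPM in Input (0.24, SE 0.35). IP 1 was the highest and Input 3 the lowest in relative level, and without them its relative difference was -0.21.

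**Figure D3:**
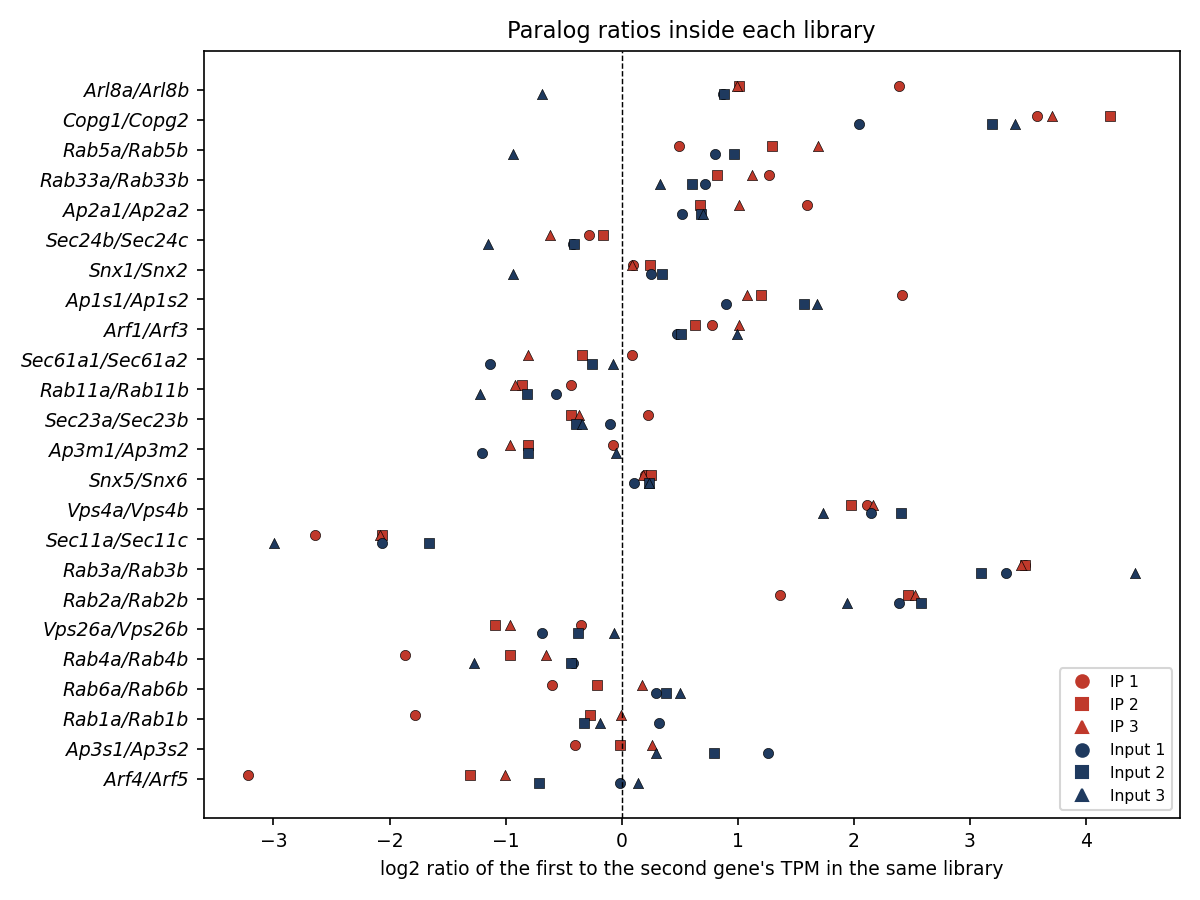
Log2 ratio of the TPM of paralogous trafficking genes within each IP and Input library. The Arf4 to Arf5 and Rab6a to Rab6b ratios lie lower in all IP libraries than in all Inputs, the Arl8a to Arl8b and Copg1 to Copg2 ratios lie higher, and the Snx5 to Snx6 ratio is near constant.

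A total of 24 paralog pairs were compared in this way, picked after the data were seen, and only as a description. In 6 the IP and Input ratios did not overlap (3 higher and 3 lower in IP), and in 18 they did. No background over other gene pairs was computed. Beside the pairs above, Copg1 was 11.9, 18.5 and 13.1 times Copg2 in IP and 4.13, 9.12 and 10.5 times in Input, a log2 difference of 0.96. The ratio of Ap3s1 to Ap3s2 was 0.757, 0.989 and 1.20 in IP and 2.39, 1.74 and 1.22 in Input (-0.83 on the log2 scale). The ratio of Rab33a to Rab33b was 2.41, 1.76 and 2.17 in IP and 1.65, 1.52 and 1.26 in Input (0.52 on the log2 scale). The ratio of Arf1 to Arf3 overlapped between groups (0.15 on the log2 scale), as did that of Rab11a to Rab11b (0.13).

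Most trafficking genes took their extreme values in the same few libraries. The sum of the 138 genes was 8321, 14867 and 14723 TPM in IP and 19599, 19816 and 9926 TPM in Input. IP 1 was the lowest of the 6 libraries for 86 genes (62.3%, against 50.3% of all genes), and Input 3 for 42. Inputs 1 and 2 held the highest value of 111 genes (80.4%, against 68.5% of all genes). In relative level the median of the 138 genes was -0.23 in IP 1 and between 0.22 and 0.33 in the other 5 libraries, so that IP 1 alone was low.

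**Figure D4:**
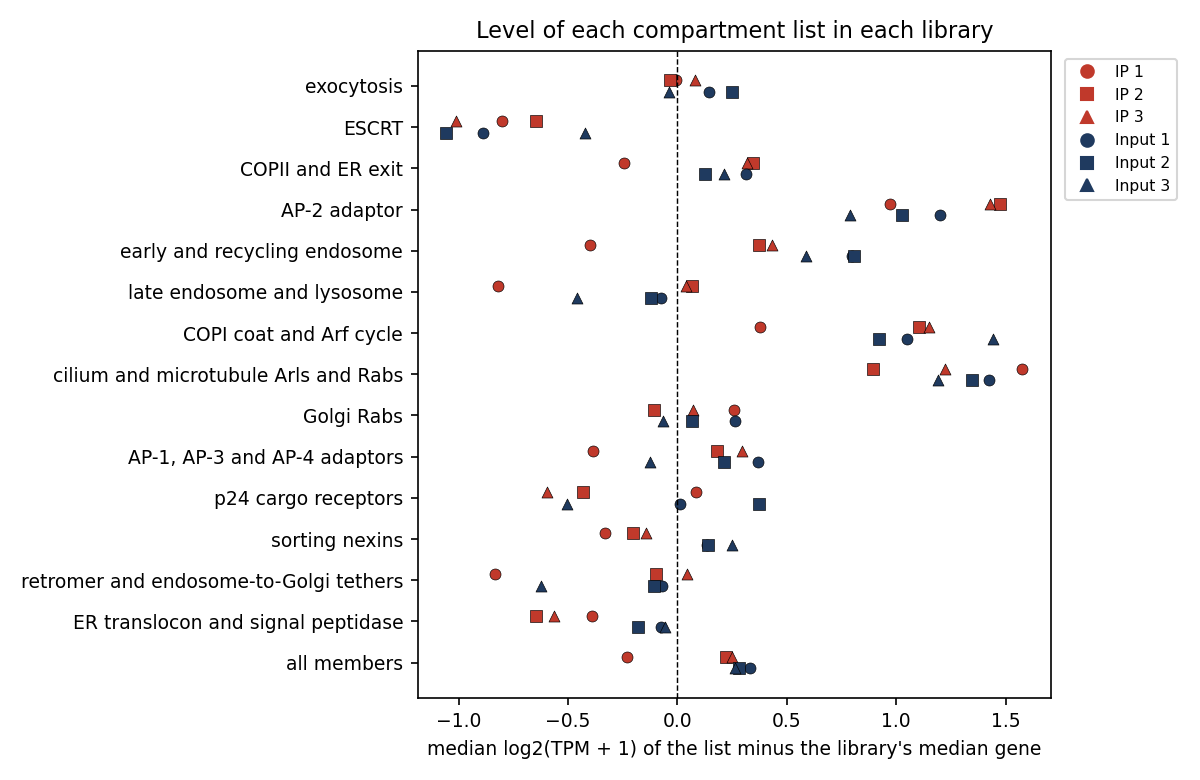
Median relative level of each compartment list in each IP and Input library, on the log2 scale. The sorting nexins (-0.33, -0.20 and -0.15 in IP, 0.13 to 0.25 in Input), the ER translocon and signal peptidase, and the early and recycling endosome have all 3 IP medians below all 3 Input medians. For the early and recycling endosome, the median is the value of Rab4a in every library but Input 2.

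Base composition moved with the relative difference, and transcript length did so mainly in the second reading. Across the 138 genes, the GC content of the transcript and the relative difference had a Spearman rho of 0.52, and 0.29 in the second reading. The same values over the 5534 genes of the table with a matched transcript were 0.38 and 0.15. These are descriptions over genes that share libraries. Of the 46 trafficking genes lowest in GC, at 35.0% to 48.1%, 8 lay above the median gene, with a median of -0.44. In the middle group, 48.2% to 53.0%, 16 of 46 did (median -0.16), and in the highest, 53.1% to 60.6%, 26 of 46 did (median 0.06). In the second reading the medians from lowest to highest GC were -0.16, -0.15 and -0.04. Over all libraries, all genes of the table in the same ranges had medians of -0.23, 0.03 and 0.16. Arf4 and Arf5 have a GC of 43.6% and 59.9%, and Arl8b and Arl8a of 43.4% and 53.4%. Rab6a and Rab6b have 44.6% and 51.4%, and Copg2 and Copg1 44.3% and 52.1%. Ap3s1 and Ap3s2 have 40.9% and 50.2%, and Rab33b and Rab33a 45.7% and 53.5%. All 6 pairs with separate ratios thus lay in the same order in GC as in relative difference. The 18 pairs with overlapping ratios were mixed. Rab11a (39.5%) and Rab11b (48.1%) lay in the reverse order. So did the pairs Arf1 and Arf3, Rab3a and Rab3b, Rab5a and Rab5b, and Vps4a and Vps4b. The pairs Sec23a and Sec23b, Sec24b and Sec24c, and Ap3m1 and Ap3m2 also lay in reverse, and the remaining pairs in the same order. Rab5b, the lowest gene, has 49.1%. Transcript length had a rho of 0.17 with the relative difference over all libraries and 0.41 in the second reading, more than GC there. Over all genes the values for length were -0.04 and 0.29. In the second reading the 46 shortest trafficking transcripts had a median of -0.28, the middle 46 a median of -0.14 and the 46 longest a median of 0.09. Over all libraries these medians were -0.20, -0.24 and 0.04. The coat and adaptor subunits have a median transcript length of 3804 bases, and the Arf and Arl GTPases of 1852 bases. In GC the order was reversed, with a median of 50.6% for the coat and adaptor subunits. The Arf and Arl GTPases, lower in relative difference, had a median GC of 52.1%, the highest of the classes. The part of base composition and of length in these values was not tested.

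**Figure D5:**
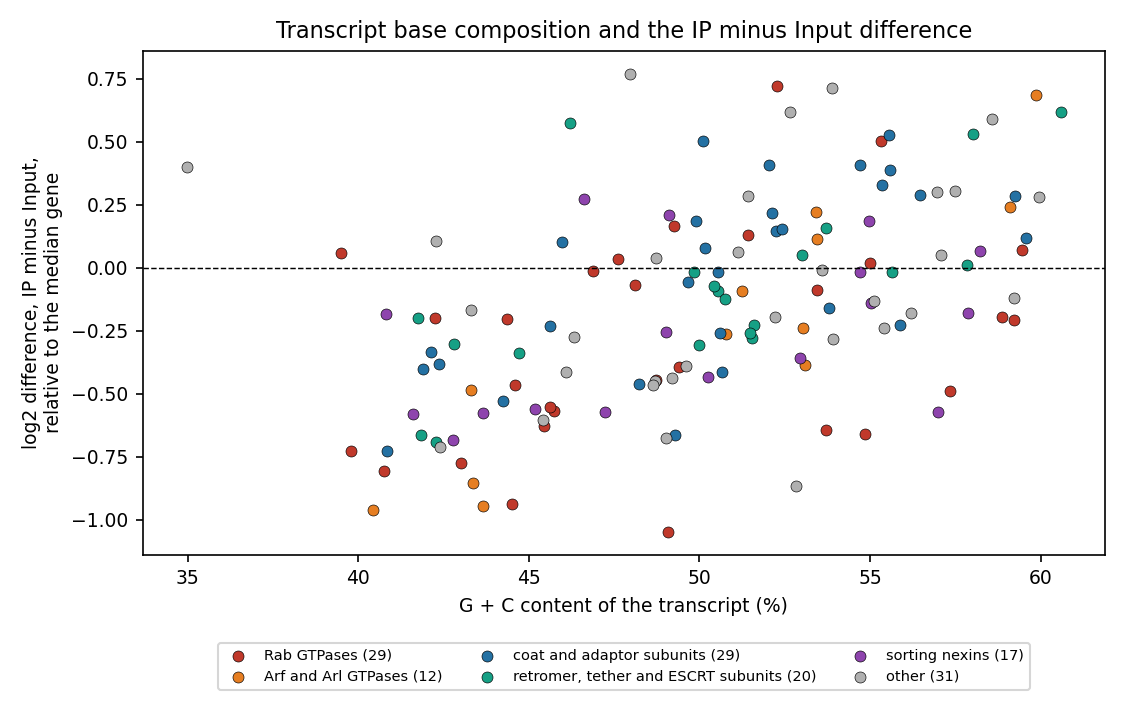
Relative log2 difference, IP minus Input, of the 138 trafficking genes against the GC content of their transcript in percent. Over all libraries the values climb with GC, from a median of -0.44 in the lowest group of 46 genes to 0.06 in the highest. In the second reading, not plotted, these medians were -0.16 and -0.04.

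Trafficking genes outside the symbol patterns, from a list of 120 entries, had 90 measured members. Their median relative difference was -0.02, with 42 of 90 above the median gene. Of these, 5 (5.56%) had all IP values above all Inputs and 10 (11.1%) all below, near the 6.93% and 9.71% of all genes. By limma, 0 were called in either direction. At an unadjusted p under 0.05, 1 was higher (1.11%, background 3.58%) and 2 were lower (2.22%, background 3.85%). The 11 clathrin and dynamin genes, which build and cut the coated vesicle, had a median of 0.12. The 24 regulators that switch Rabs and Arfs on and off had a median of 0.08, the 26 tethers -0.02, the 14 further ESCRT genes -0.11 and the 15 genes of ER to Golgi cargo -0.12.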

How the data were processed

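The authors deposited TPM, as the file header states, for 5538 genes in 6 libraries, and the table's lowest value is 7.00. Genes without a row were not analysed here. Per the submitters' processing notes, RSEM, DESeq and the build mm10 were used, with no versions or roles. The aligner and the handling of strand are not given in the sources used here. TPM corrects for length and keeps no depth, so no counting interval is given and the precision rests on the number of libraries.

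TPM were put on the log2(TPM + 1) scale and the median gene of every library was subtracted. Differences on this scale understate the change of low genes. IP was compared with Input in limma 3.58.1 under R 4.3.3 (trended eBayes after lmFit), with group as its single term, over all genes, with Benjamini-Hochberg adjustment and a threshold of 0.05. The script was tested on simulated data. The members, lists and tests were chosen with earlier results of these data known. Named genes are the 10 with the smallest p, the highest, lowest and most abundant of each list, any called under an alternative, and 13 measured of 14 set by name, 52 in all. Rab6a, Arl8a, Copg1, Copg2, Ap3s2 and other genes outside the rule were named after their values were seen. Coordinates, GC and coding sequences come from GENCODE M21 on GRCm38, the build also called mm10, by the principal transcript of each gene, and all 138 symbols matched. The exons of 50 members are overlapped by a gene on the opposite strand, in 16 cases one that is in the table.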

Additional observations from a re-analysis of the deposited data

How the results depend on the processing

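The median relative difference of the trafficking genes was negative under each of the 14 alternatives fitted over the table, and among the 130 placed genes, and 36 of the 52 named genes kept their sign under each of the 14. Counts of separate groups are given with the share of all genes under the same setting. Among the 80 trafficking genes with a mean of at least 50 TPM, 30 were above the median gene (37.5%, all genes 50.9%). Of the 80, 2 had all IP values above (2.50%, all genes 6.89%) and 9 all below Input (11.3%, all genes 10.97%). Without centring (median of all genes -0.23), the median was -0.42 and 24 genes were above zero (17.4%, all genes 30.6%). In that setting 0 had all IP values above (all genes 1.70%) and 12 all below (8.70%, all genes 6.21%). Quantile normalization gave 2 with all IP above (1.45%, all genes 6.32%). Leaving out each library in turn gave 6 to 16 with all IP above (16 without IP 1, 14 without Input 3, 10 without Input 2, 7 without IP 2, 6 without IP 3 or Input 1), or 4.35% to 11.6%, against 9.10% to 18.1% of all genes. It gave 21 to 39 with all below (39 without Input 3, 34 without Input 2, 33 without IP 1 or IP 3), or 15.2% to 28.3%, against 12.5% to 20.2% of all genes. Fewer libraries overlap less often by construction. Without both IP 1 and Input 3, 3 genes were called higher and 1 lower, and 30 had all IP above (21.7%, all genes 25.2%) and 56 all below (40.6%, all genes 31.5%). With neither centring nor those libraries (median of all genes -0.32), 2 were called higher and 33 lower, against 121 and 936 of all genes. There 89 had all IP below (64.5%, all genes 56.4%), 24 were above zero (17.4%, all genes 22.9%) and the median was -0.42. The 11 genes lower at an unadjusted p under 0.05 became 3 at the 50 TPM minimum (3.75%, all genes 4.11%) and 0 without centring (all genes 0.96%). No depth is known, so what it limits could not be assessed.

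Signs changed in the following, and the cause was not tested. Rab3a was 0.00 at the 50 TPM minimum. Without centring, Arl2 was -0.01, Copa -0.06, Rab11a -0.19, Rab3a -0.23 and Rab6b -0.11. With quantile normalization, Rab11a was -0.06 and Rab3a -0.43. Without both IP 1 and Input 3, Arl2 was -0.21, Cope -0.08, Rab11a -0.13, Rab11b 0.07, Rab3a -0.08, Sec61a1 0.11, Sec61b -0.28 and Tmed5 -0.24. With neither centring nor those libraries, Arf5 was -0.10, Arl2 -0.49, Cope -0.36, Rab11a -0.42, Rab3a -0.36, Rab6b -0.27, Sec61b -0.57, Tmed5 -0.53 and Vps51 -0.08. Leaving out each library in turn, the ranges were -0.03 to 0.47 for Arl2, -0.16 to 0.22 for Rab11a, -0.47 to 0.09 for Rab2a, -0.16 to 0.16 for Rab3a, -0.69 to 0.46 for Rab5a, -0.32 to 0.87 for Sec61b, -0.50 to 0.07 for Tmed2, -0.62 to 1.05 for Tmed5, -0.46 to 0.05 for Ap1s1, -0.23 to 0.13 for Rab11b and -0.12 to 0.28 for Rab6b.

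Deviations of samples with the same number from their group means correlated at r = -0.10, 0.25 and -0.17 for the 3 numbers. IP 1 and Input 3, which stood apart from their groups, carry different numbers, so these values cannot decide whether the numbers pair the samples. The labels do not state a pairing, and the main fit used none. In a fit with a replicate block, the called genes were 0, 4 had all IP above and 20 all below, 50 lay above the median gene, the median was -0.18, and the genes at an unadjusted p under 0.05 and lower in IP were 4 in place of 11 (2.90%, all genes 2.47%).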
